A study of Mus musculus with 6 samples.

Results

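The genes described here encode eukaryotic translation initiation factors, the proteins that bring the ribosome, the initiator tRNA and the mRNA together before protein synthesis begins. Members were the genes whose symbol starts with Eif followed by a digit from 1 to 6, without the Y-linked Eif2s3y, that had at least 1 probe set paired with that symbol alone, and each gene took the value of its brightest probe set. This gave 48 of the 19938 genes with such a probe set, and with Eif3g 49 genes, measured by 58 of the 35556 probe sets with values. Eif3g lacked such a pairing and was named through the study's list of changed probe sets. That list was chosen on the same arrays, so the call of Eif3g is not independent of how it became a member. Eif1, Eif2s1, Eif4g1, Eif4ebp3 and Eif3j had no probe set paired with their symbol alone and were not members.

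RNA came from the whole thymus of mice aged 10 days and was hybridised to Affymetrix MoGene-1 arrays. The RUNX2/MYC group (3 arrays) carried the genotype CD2-Myc/CD2-Runx2, in which control elements of the T cell gene CD2 drive both transgenes, on a C57BL6/CBA background. The WT group (3 arrays) was C57/CBA, and the methods describe littermate-matched genotype controls. Each array is labelled as a biological replicate. At this age the transgenic thymus is premalignant and holds, per the study, an expanded thymocyte population beside normal cells. All values are log2 signals, and all differences are log2 fold changes of RUNX2/MYC against WT, so that 1 is a doubling. The call higher or lower rests on limma, a moderated linear model fitted to all probe sets, with a Benjamini-Hochberg adjusted p under 0.05. Because whole thymus was used, fewer cells of a type and less RNA per cell cannot be told apart in these values.

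In the scanning model of initiation, eIF1 and eIF1A open the small ribosomal subunit, eIF2 delivers the initiator tRNA with GTP, and eIF3 holds the assembly together. The mRNA is recruited through its cap by eIF4E, the helicase eIF4A and the scaffold eIF4G, which together form eIF4F. After start codon recognition eIF5 and eIF5B complete GTP hydrolysis and subunit joining, and the exchange factor eIF2B recharges eIF2 for the next round. Genes of ribosome production and of translation are a well known target class of MYC, and growing lymphoid cells increase protein synthesis as they enlarge and divide.

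The Runx2 probe set, named through the same list, had log2 signals of 11.73, 11.78 and 11.96 on RUNX2/MYC replicates 1 to 3 and 7.93 to 7.94 on the WT arrays. The labelled tissue was checked on thymocyte genes. Cd3e had log2 signals of 12.79 to 13.04 and Cd8a of 11.90 to 12.63 over all 6 arrays, with overlap between the groups. Cd4, Rag1, Rag2 and Dntt lay lower on each RUNX2/MYC array than on any WT array, with log2 fold changes of -0.74, -0.62, -0.55 and -0.52 (adjusted p from 0.0910 to 0.211, limma). The log2 of the summed signal of 8 of 9 listed thymocyte markers was 14.78 to 15.03 on the RUNX2/MYC arrays and 15.06 to 15.23 on the WT arrays, and that of 8 thymic epithelial markers was 13.01 to 13.18 and 13.50 to 13.60. For 5 of 6 listed macrophage and dendritic cell markers the sums were 11.31 to 11.66 and 11.44 on every WT array, and for 2 of 3 B cell markers 7.74 to 8.01 and 8.01 to 8.25. Of the erythroid list only Alas2 was measured, at 9.36 to 10.91 and 8.55 to 9.21. For 7 of 8 listed adipocyte markers RUNX2/MYC replicate 2 had a sum of 12.17, against 10.31 to 10.65 on the other 5 arrays. It stood highest above them for Ucp1 (9.93) and Car3 (10.57), while its Retn (7.32) lay within their range. No marker on these lists was called (limma), and their part in the differences below was not tested.

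Of the 49 initiation factor genes, 4 were higher in RUNX2/MYC thymus (Eif2b3, Eif1a, Eif3g and Eif3b), 0 were lower and 45 were not called. Over all probe sets 1.68% were higher and 0.127% lower by the same rule, against 8.16% of the initiation factor genes for the higher direction. Without Eif3g, 3 of 48 were higher. At an unadjusted p under 0.05 from limma, 30 initiation factor genes were higher and 0 lower, where the shares over all probe sets were 12% and 9.27%. The test named in the methods, run per probe set with q values, called 16 higher and 0 lower. It called 1213 of the 35556 probe sets higher and 247 lower. Limma with array weights, whose estimation did not converge, called 35 genes higher and 2 lower (Eif4e1b and Eif5a2). Of the probe sets it called 9165 higher and 12137 lower. In the limma fit without weights, an adjusted p under 0.1 was reached by 14 genes in the higher direction, against 4.23% of all probe sets. The arrays of the groups did not overlap for 34 genes, all higher in RUNX2/MYC, and overlapped for the other 15, while 14.3% of all probe sets were higher without overlap and 10.1% lower. The log2 fold change was positive for 44 genes (40 to 46 under the other normalizations) and negative for 5, where 42.3% of all probe sets were positive. Its median was 0.285 (0.282 without Eif3g), within a range of -0.31 to 0.84, and the median over all probe sets was -0.051. Without Eif3g, 29 of 48 genes were higher at an unadjusted p under 0.05 and 13 at an adjusted p under 0.1 (limma). Of the same 48, 33 were higher without overlap and 43 were positive.

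The count of called genes depended on single arrays. When RUNX2/MYC replicate 1 was left out it stayed at 4, and when WT replicate 3 was left out it fell to 3 (Eif1a, Eif2b3 and Eif2s2). Leaving out replicate 2 or 3 of RUNX2/MYC, or replicate 1 or 2 of WT, gave 0. In those fits the count over all probe sets also changed, from 3 to 872 higher. The initiation factor median log2 fold change lay between 0.268 and 0.332 in the same 6 fits, but moved further with the normalization, to 0.187 by quantiles, 0.189 by the 75th percentile, 0.177 by cyclic loess and 0.369 by the array median. The median over all probe sets was -0.023, -0.147, -0.0086 and 0.033 under these settings, and -0.051 on the deposited values. Without RUNX2/MYC replicate 2, the array with high adipocyte markers, the initiation factor median was 0.273 and 42 of 49 genes were positive. A further normalization by quantiles, by the 75th percentile or by cyclic loess kept 2 of the 4 calls, Eif1a and Eif2b3, and lost Eif3b and Eif3g.

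**Figure D1:**
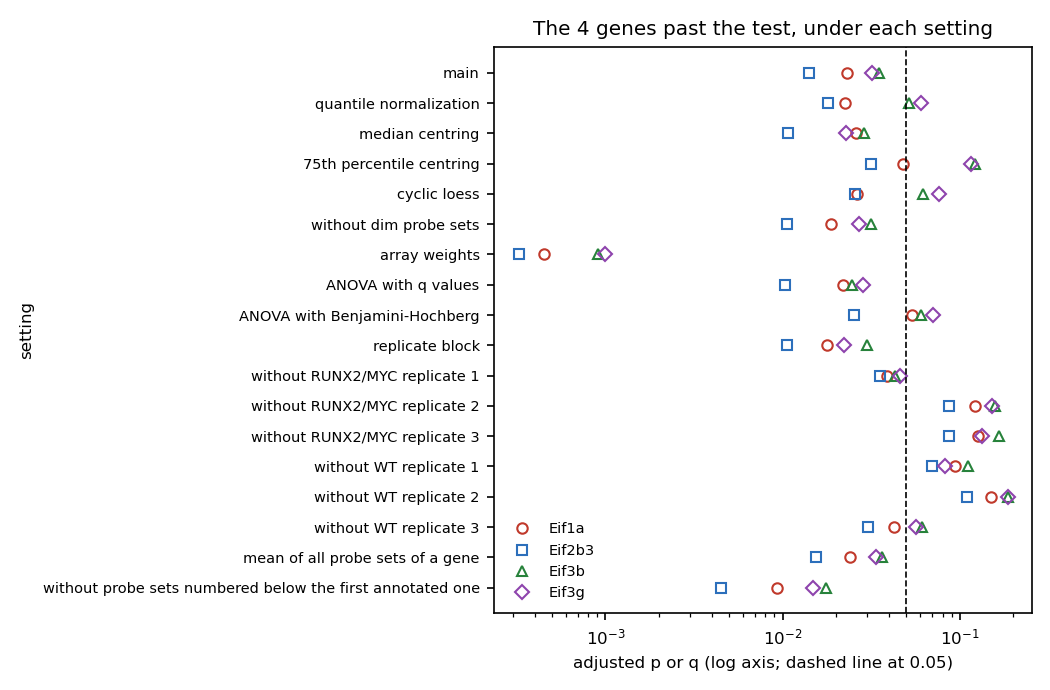
Adjusted p or q (x axis, log scale, dashed line at 0.05) of the 4 called genes under each way of processing or testing the data (rows). Without RUNX2/MYC replicate 2 or 3 or WT replicate 1 or 2, each of the 4 genes lies right of the line, and Eif2b3 lies left of it under each other setting shown.

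**Figure D2:**
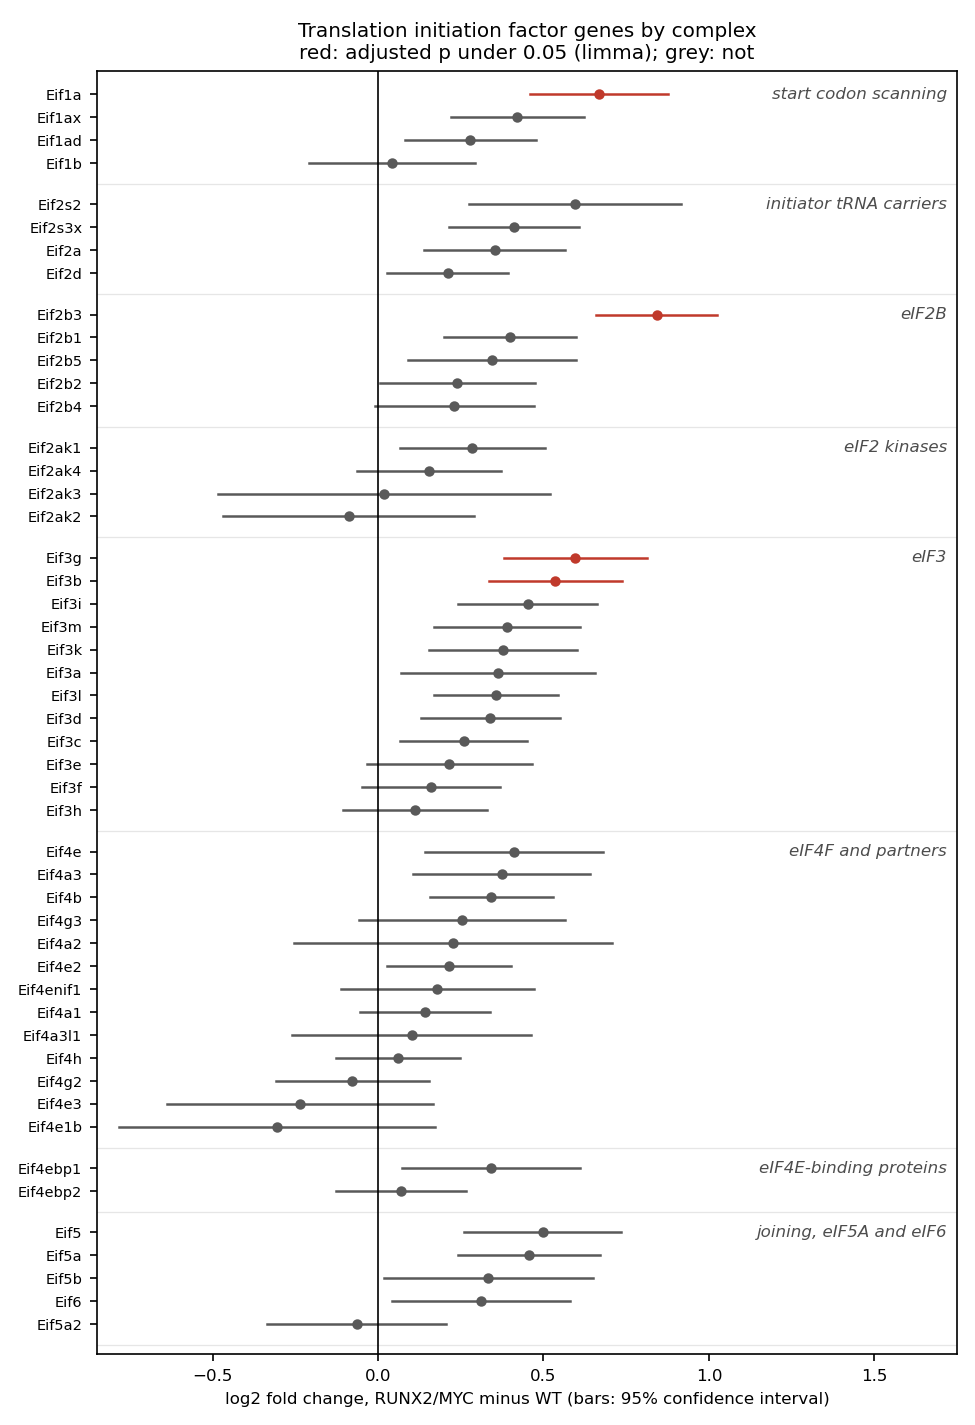
Log2 fold change (x axis, RUNX2/MYC minus WT) of each of the 49 initiation factor genes, grouped by complex, with bars for the 95% confidence interval from limma and red for genes past the test. The 4 red genes lie at 0.54 to 0.84, and 44 of the 49 points lie right of 0.

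The positive differences appeared on each transgenic array. RUNX2/MYC replicates 1, 2 and 3 had 41, 45 and 43 of the 49 genes above their WT mean, with median deviations from that mean of 0.225, 0.341 and 0.287. On WT replicates 1, 2 and 3 the medians were -0.016, 0.0051 and 0.019. The corresponding medians over all probe sets were -0.016, -0.059 and -0.048 for RUNX2/MYC and 0.027, 0.0038 and -0.032 for WT. RUNX2/MYC replicate 2 held the highest value of 31 genes, and the lowest value lay on WT replicate 1 for 20 genes, WT replicate 3 for 14 and WT replicate 2 for 10.

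**Figure D3:**
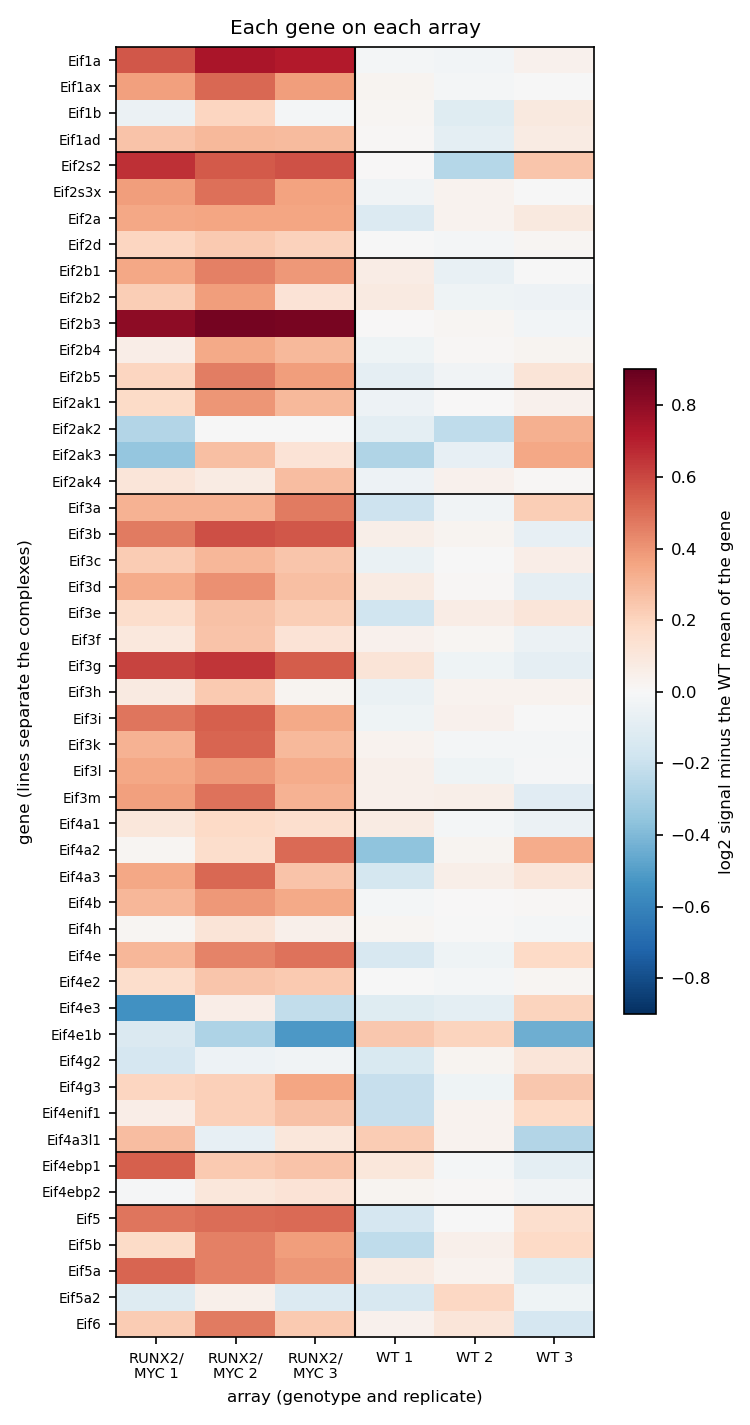
Log2 signal of each initiation factor gene (rows, ordered by complex) on each array (columns, RUNX2/MYC replicates 1 to 3 and WT replicates 1 to 3), shown as the difference from the WT mean of the gene. Red is above and blue below that mean; RUNX2/MYC replicate 2 is above it for 45 of 49 genes, and the 5 genes with negative fold changes (Eif2ak2, Eif4e3, Eif4e1b, Eif4g2 and Eif5a2) break the pattern.

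Fold changes on these arrays varied with signal, and most initiation factor genes were bright. The median log2 fold change over all probe sets was -0.075 below a mean log2 signal of 6, -0.14 from 6 to 8, 0.061 from 8 to 9, 0.13 from 9 to 10, 0.11 from 10 to 11, 0.10 from 11 to 12 and 0.10 above 12. Within the same ranges the initiation factor medians were 0.31 (14 genes, 9 to 10), 0.36 (13 genes, 10 to 11), 0.34 (11 genes, 11 to 12) and 0.14 (5 genes, above 12). The other 6 genes lay below a signal of 9. From 9 to 12 the initiation factor median exceeded that of all probe sets of like signal by less than it exceeded the median over the whole array. Probe sets higher without overlap made up 28.4%, 32.7% and 37.2% of all probe sets from 9 to 10, 10 to 11 and 11 to 12, and those called higher 4.37%, 4.71% and 2.76%.

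**Figure D4:**
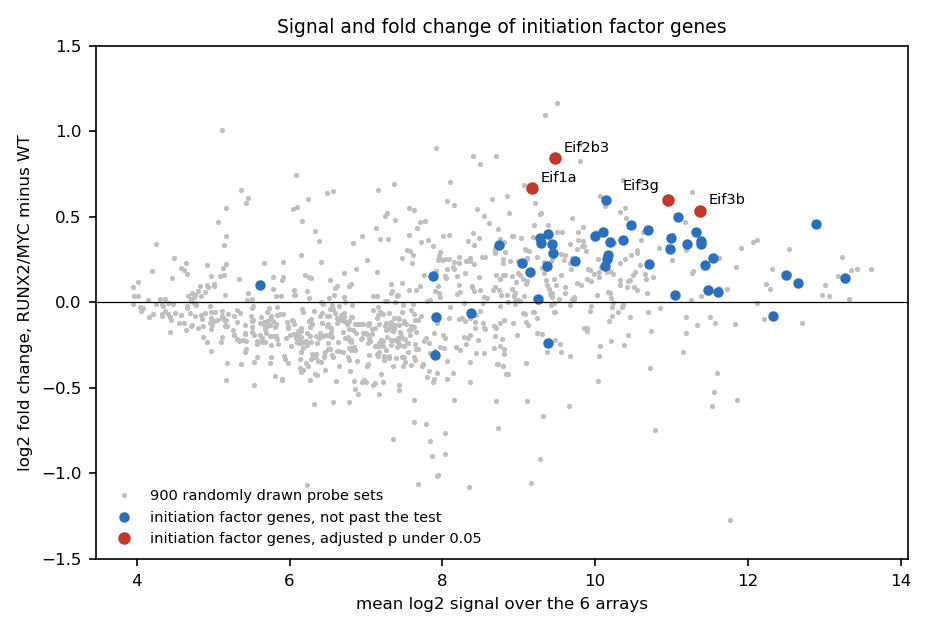
Mean log2 signal over the 6 arrays (x axis) against log2 fold change (y axis, RUNX2/MYC minus WT) for the initiation factor genes, over 900 randomly drawn probe sets in grey. The called genes (red) stand above most grey points of like signal, though some grey points lie higher, and most blue points lie above 0. The grey points were drawn from all probe sets, members included.

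The scanning factors bind the small subunit and govern the choice of start codon. Of 4 measured genes 1 was higher, and their median log2 fold change was 0.35. Eif1a, which encodes eIF1A, had log2 signals of 9.40, 9.58 and 9.55 on RUNX2/MYC replicates 1 to 3 and 8.82, 8.82 and 8.88 on WT replicates 1 to 3. The lowest transgenic array lay above the highest WT array, and the gene rose 1.59-fold, a log2 fold change of 0.67 (standard error 0.088, 95% interval 0.46 to 0.88, adjusted p = 0.0230 from limma). Eif1ax, the X-linked gene of a nearly identical eIF1A, had means of 10.91 ± 0.085 in RUNX2/MYC and 10.48 ± 0.020 in WT (SD, n = 3 each) without overlap, and missed the threshold (log2 fold change 0.42, adjusted p = 0.0627). Eif1ad, which encodes a protein with an eIF1A domain, had a log2 fold change of 0.28 without overlap (adjusted p = 0.149). Eif1b, a close relative of Eif1, overlapped between the groups at 10.97, 11.22 and 11.01 against 11.05, 10.92 and 11.12 (log2 fold change 0.041, adjusted p = 0.818, negative under 3 of the 4 other normalizations). Another 4 probe sets that pair Eif1a with several predicted genes had log2 fold changes of -0.11 to -0.01, and which of these copies each set reads was not tested.

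The carriers of initiator tRNA showed no call but 4 of 4 genes were higher without overlap, as were 28.4% to 37.2% of all probe sets at signals of 9 to 12. Their median log2 fold change was 0.38. Eif2s2, the beta subunit of eIF2, had the largest difference, with 10.50, 10.40 and 10.42 on the RUNX2/MYC arrays and 9.85, 9.59 and 10.09 on the WT arrays. The WT arrays were spread more widely here than the transgenic ones, and the log2 fold change of 0.60 (standard error 0.14) had an adjusted p of 0.0836 from limma. Its second probe set gave 0.26. Eif2s3x, the X-linked gamma subunit that binds GTP and the tRNA, had 11.49, 11.60 and 11.47 against 11.08, 11.14 and 11.11 and a log2 fold change of 0.41 (adjusted p = 0.0627). Eif2a and Eif2d encode alternative factors that can bring the initiator tRNA to the ribosome, and their log2 fold changes were 0.35 (adjusted p = 0.108) and 0.21 (adjusted p = 0.198). Because Eif1ax and Eif2s3x are X-linked, genes that mark sex were read as well: Xist had a log2 signal of 5.42 to 5.84 and the Y-linked Kdm5d one of 8.52 to 9.12 over all 6 arrays, with overlap between the groups.

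Each of the 5 genes of eIF2B, the exchange factor that returns eIF2 to its GTP-bound form, was higher on all 3 transgenic arrays than on any WT array, as were 28.4% of all probe sets at signals of 9 to 10, and 1 was called. Eif2b3, the gamma subunit, which pairs with the catalytic epsilon subunit, had log2 signals of 9.86, 9.92 and 9.91 on the RUNX2/MYC arrays. On the WT arrays it had 9.06, 9.08 and 9.03. The replicates of each group lay close together, and the gene rose 1.79-fold, the largest difference among the initiation factor genes (log2 fold change 0.84, standard error 0.078, 95% interval 0.66 to 1.03, adjusted p = 0.0140 from limma). The regulatory alpha subunit Eif2b1 had 9.53, 9.64 and 9.57 against 9.25, 9.12 and 9.18, a log2 fold change of 0.40 with an adjusted p of 0.0723. The catalytic subunit Eif2b5 had one of 0.34 (adjusted p = 0.158), Eif2b2 one of 0.24 (adjusted p = 0.230) and Eif2b4 one of 0.23 (adjusted p = 0.247). The deviation of Eif2b3 from its WT mean, less the mean deviation of the other 4 subunits, was 0.60, 0.45 and 0.56 on the RUNX2/MYC arrays and -0.0014, 0.052 and -0.051 on the WT arrays. The subunit genes of the complex thus differed unequally, by 0.84 for Eif2b3 and by 0.30 on average for the others. This contrast was chosen after the values were seen and is a description.

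The 4 kinases that phosphorylate eIF2 and so block its recycling by eIF2B under stress had a median log2 fold change of 0.085 and no call. Eif2ak1, the heme-regulated kinase HRI, had the largest difference, with 9.48, 9.70 and 9.60 on the RUNX2/MYC arrays and 9.26, 9.31 and 9.35 on the WT arrays. These did not overlap, and the log2 fold change of 0.29 (standard error 0.092) had an adjusted p of 0.167 from limma. Eif2ak4, the amino acid sensor GCN2, had 0.15 (adjusted p = 0.345), also without overlap. Eif2ak3, the endoplasmic reticulum kinase PERK, varied within groups by more than between them (8.89, 9.51 and 9.36 against 8.97, 9.16 and 9.59). Its log2 fold change of 0.017 turned negative under 3 of the 4 other normalizations. Eif2ak2, the kinase PKR that responds to double-stranded RNA, overlapped as well and had -0.088 as log2 fold change (adjusted p = 0.738).

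eIF3, the largest initiation factor, was measured through 12 subunit genes, of which 2 were higher and 12 had a positive log2 fold change, with a median of 0.36. In 11 of them the arrays did not overlap, the exception being Eif3h, and the share of all probe sets higher without overlap was 14.3%, or 28.4% to 44.1% at signals above 9. Without Eif3g, 1 of 11 was called higher, the arrays did not overlap for 10 of 11, and the median was also 0.36. Eif3g, an RNA-binding subunit, had 11.26, 11.30 and 11.20 on RUNX2/MYC replicates 1 to 3 and 10.78, 10.62 and 10.58 on WT replicates 1 to 3. The groups were well apart, and the gene rose 1.51-fold (log2 fold change 0.60, standard error 0.091, adjusted p = 0.0322 from limma). Eif3b, the scaffold on which eIF3g and eIF3i sit, had 11.58, 11.70 and 11.67 against 11.16, 11.14 and 11.04 and rose 1.45-fold (log2 fold change 0.54, standard error 0.085, adjusted p = 0.0351). For both genes the distance between the groups was larger than the spread within either. Eif3i, the WD-repeat partner in this module, had 10.72, 10.78 and 10.58 against 10.21, 10.28 and 10.24, without overlap and just short of the threshold (log2 fold change 0.45, adjusted p = 0.0603).

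The subunits of the eIF3 octamer core, which carry PCI and MPN domains, had smaller differences when each gene was read by its brightest probe set. The log2 fold change was 0.39 for Eif3m (adjusted p = 0.0926), 0.38 for Eif3k (adjusted p = 0.103), 0.36 for Eif3a, the largest subunit (adjusted p = 0.180), and 0.36 for Eif3l (adjusted p = 0.0795). Those of Eif3c, Eif3e, Eif3f and Eif3h were 0.26, 0.22, 0.16 and 0.11, with adjusted p from 0.162 to 0.461. None of these 8 genes was called. Eif3d, the cap-binding subunit attached to the core, had 0.34 as log2 fold change (adjusted p = 0.112). The mean deviation of Eif3b, Eif3g and Eif3i less that of the 8 core genes was 0.28, 0.24 and 0.23 on the RUNX2/MYC arrays and 0.084, -0.00060 and -0.084 on the WT arrays. The means of the log2 fold changes were 0.53 and 0.28, with Eif3m taken at 0.39. A second probe set of Eif3m, numbered among genes of its own chromosome, gave 0.55 (standard error 0.23, adjusted p = 0.225 from limma). That value lies above those of Eif3b and Eif3i, so the order of the subunits depends on the set read. As with Eif2b3, this contrast was chosen after the values were seen and is a description. It includes Eif3g, named through the list chosen on these arrays, and was not computed without it. Eif3b and Eif3i by themselves had 0.54 and 0.45. The loosely bound subunit eIF3j is encoded by a pair of genes that share their probe sets, and these sets had log2 fold changes of 0.45 and 0.38, both without overlap and neither called.

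**Figure D5:**
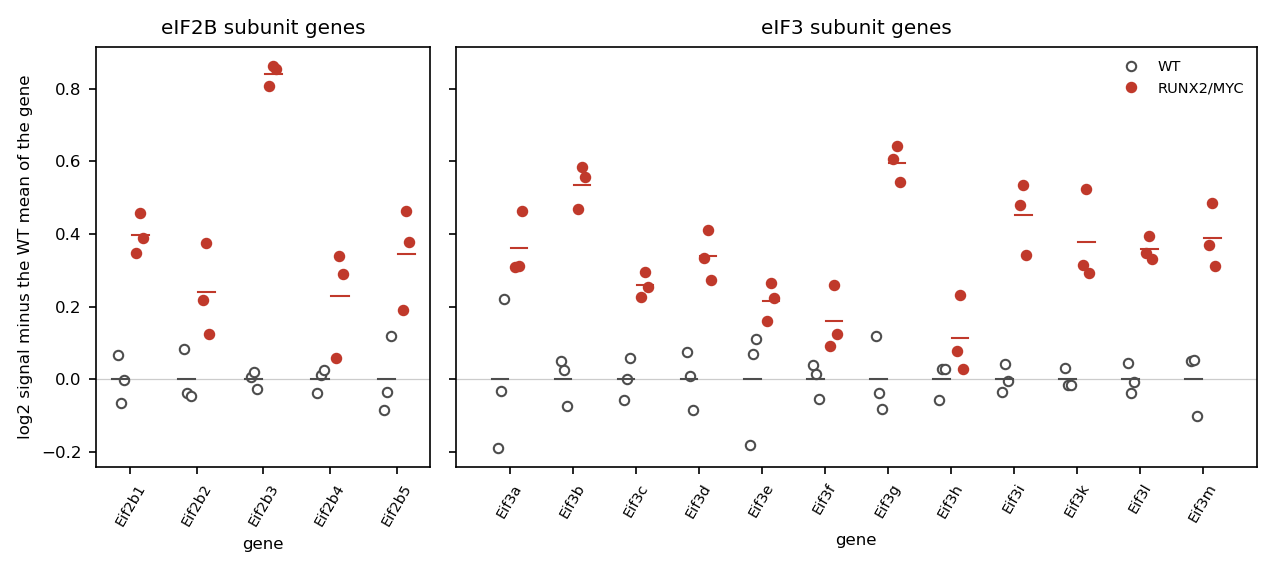
Log2 signal minus the WT mean of the gene (y axis) for the 5 eIF2B and 12 eIF3 subunit genes, with 1 point per array, open for WT and filled for RUNX2/MYC, and a line at each group mean. Eif2b3 lies near 0.84 on all 3 transgenic arrays, above the other eIF2B genes, and Eif3g and Eif3b lie highest among the eIF3 genes.

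Among the 13 genes of eIF4F and its partners none was called. Without overlap 5 were higher, against 14.3% of all probe sets, or 28.4% to 44.1% at signals above 9, where these 5 lay. The median log2 fold change was 0.18. Eif4e, the cap-binding protein and a known target of MYC, had the largest positive difference, with 10.20, 10.34 and 10.39 on the RUNX2/MYC arrays and 9.75, 9.86 and 10.08 on the WT arrays. These values did not overlap, but the log2 fold change of 0.41 (standard error 0.11) had an adjusted p of 0.125 from limma. The other probe sets of Eif4e, which unlike this set are numbered among genes of its own chromosome, gave 0.25 and -0.15. Eif4b, which stimulates the helicase, had 0.34 as log2 fold change (adjusted p = 0.0861), whereas its relative Eif4h had 0.059 (adjusted p = 0.647), which turned negative under 3 of the 4 other normalizations. The helicase genes Eif4a1 and Eif4a2 had 0.14 (adjusted p = 0.334) and 0.23 (adjusted p = 0.499). Eif4a2 ran from 10.24 to 10.93 within WT alone. Eif4a3, the helicase of the exon junction complex, had 0.37 without overlap (adjusted p = 0.150), and its relative Eif4a3l1, with a WT mean of 5.57, had 0.10.

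The other members of the cap-binding and scaffold families included 3 with negative log2 fold changes, all with overlap. Eif4e1b, an oocyte form of eIF4E, had 7.93, 7.78 and 7.54 against 8.30, 8.26 and 7.62 and a log2 fold change of -0.31 (adjusted p = 0.376). WT replicate 3 lay below 2 of the 3 transgenic arrays for this gene. Eif4e3 had -0.24 (adjusted p = 0.413) and Eif4g2, the scaffold-like DAP5 that lacks the eIF4E site, -0.078 (adjusted p = 0.627). Eif4e2, a cap-binding repressor, had 0.21 without overlap (adjusted p = 0.201). The scaffold Eif4g3 had 0.25 (adjusted p = 0.295), and Eif4enif1, the eIF4E transporter 4E-T, 0.18 (adjusted p = 0.394).

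Of the eIF4E-binding proteins, which sequester eIF4E until they are phosphorylated by mTORC1, neither measured gene was called. Eif4ebp1 had 9.80, 9.49 and 9.51 on the RUNX2/MYC arrays and 9.36, 9.24 and 9.17 on the WT arrays. RUNX2/MYC replicate 1 was the highest, the groups did not overlap, and the log2 fold change was 0.34 (standard error 0.11, adjusted p = 0.174 from limma). Eif4ebp2 overlapped between the groups and had 0.07 as log2 fold change (adjusted p = 0.609), negative under the same 3 normalizations.

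In the last group, the factors of subunit joining with eIF5A and eIF6, none of 5 genes was called and the median log2 fold change was 0.33. Eif5, which makes eIF2 hydrolyse its GTP, had 11.32, 11.34 and 11.35 on the RUNX2/MYC arrays and 10.69, 10.84 and 10.99 on the WT arrays. The transgenic arrays lay close together and above every WT array, and the log2 fold change of 0.50 (standard error 0.10) had an adjusted p of 0.0633 from limma. Eif5a, the hypusine-containing factor that helps the ribosome past difficult peptide bonds, had 13.18, 13.11 and 13.05 against 12.73, 12.69 and 12.55 without overlap and a log2 fold change of 0.46 (adjusted p = 0.0612), whereas its paralog Eif5a2 overlapped at -0.065 (adjusted p = 0.731). Eif5b, the GTPase of subunit joining, had 0.33 with overlap (adjusted p = 0.221). Eif6, which keeps the large subunit from joining too early, had 0.31 without overlap (adjusted p = 0.197).

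For 7 members several probe sets pair with the symbol alone. In 5 of them (Eif2s2, Eif3m, Eif4a1, Eif4e and Eif5a) the brightest set is numbered among probe sets of genes on another chromosome than the gene's own, while the 42 members with 1 probe set are numbered among genes of their own chromosome. The sets numbered on the own chromosome gave log2 fold changes of 0.26 for Eif2s2, 0.55 for Eif3m, 0.12 for Eif4a1 and 0.25 for Eif5a. Those of Eif4e differed in sign, at 0.25 and -0.15. None of these genes was called by any of its sets, and what each set reads was not tested. With the own-chromosome sets, an alternative chosen after seeing the data, the median over the initiation factor genes was 0.258 and 4 genes were higher.

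The promoters of 39 of the 49 genes were found in a RefSeq table of the GRCm38.p6 assembly, and the 250 bases before the most upstream start were searched for CACGTG, the E-box that MYC with MAX can bind and that reads the same on both strands, and for TGTGGT or ACCACA, the core bound by RUNX proteins on either strand. CACGTG lay in 6 of the 39 windows (15.4%) and in 6.04% of the 27025 windows of the table. The RUNX core lay in 4 of 39 (10.3%) and in 14.2% of the table. The windows of the table were not matched to the members for base composition or expression, and the shares were not tested. Of the called genes Eif3b and Eif3g were in the table and held neither, which says only that these letters are not in these windows, and Eif1a and Eif2b3 were not in it. The windows with CACGTG were those of Eif1b, Eif3f, Eif3k, Eif4a1, Eif4h and Eif5a2, of which none was called, and those with a RUNX core were Eif3a, Eif4a3l1, Eif5b and Eif5a2. In Eif5a2, which held both motifs, they did not overlap. The eIF3 windows of both kinds are shown so that called and uncalled subunits can be set side by side, on the plus strand for Eif3b (chr5:140419055-140419304) and Eif3f (chr7:108934165-108934414) and on the minus strand for Eif3g (chr9:20898591-20898840) and Eif3k (chr7:28981889-28982138), each ending at the base before the start, with CACGTG in capitals.
Eif3b: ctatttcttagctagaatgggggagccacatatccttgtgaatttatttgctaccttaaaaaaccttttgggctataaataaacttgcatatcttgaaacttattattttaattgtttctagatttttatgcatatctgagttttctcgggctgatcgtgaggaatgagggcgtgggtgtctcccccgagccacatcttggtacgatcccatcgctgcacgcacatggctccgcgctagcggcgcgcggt
Eif3g: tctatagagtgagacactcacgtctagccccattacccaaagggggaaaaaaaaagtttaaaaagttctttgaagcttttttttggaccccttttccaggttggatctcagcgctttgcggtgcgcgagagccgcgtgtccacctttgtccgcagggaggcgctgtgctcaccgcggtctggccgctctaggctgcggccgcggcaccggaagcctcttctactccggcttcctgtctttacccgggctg
Eif3f: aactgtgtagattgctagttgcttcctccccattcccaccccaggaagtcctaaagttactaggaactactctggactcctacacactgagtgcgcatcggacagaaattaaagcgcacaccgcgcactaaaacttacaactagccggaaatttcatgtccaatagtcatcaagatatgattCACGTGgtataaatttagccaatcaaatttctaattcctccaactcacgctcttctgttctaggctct
Eif3k: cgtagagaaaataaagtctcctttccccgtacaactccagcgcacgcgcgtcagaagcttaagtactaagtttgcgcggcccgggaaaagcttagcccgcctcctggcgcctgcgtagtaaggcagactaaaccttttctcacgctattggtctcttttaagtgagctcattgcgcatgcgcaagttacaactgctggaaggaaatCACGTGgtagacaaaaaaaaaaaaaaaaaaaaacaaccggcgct
The E-box began 68 bases before the start in Eif3f, whose log2 fold change was 0.16, and 44 bases before it in Eif3k, at 0.38. The called genes, Eif3g at 0.60 and Eif3b at 0.54, had none in the same window. Nor did the uncalled Eif3a (0.36), Eif3c (0.26), Eif3d (0.34), Eif3l (0.36) and Eif3m (0.39). Whether the E-box bears on these differences was not tested. With looser patterns and a longer window, the study searched the genes it called on these arrays for closely linked MYC and RUNX sites. Its separate searches for single sites were not read here. The search for linked sites lists sites of both kinds for Eif1a and for Eif2a. Those of Eif2a, whose window held neither motif searched here, read aacCACGCGgg for MYC and ctcTGTGGTac for RUNX, with the letters nearest to each motif in capitals.

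Other genes of translation were followed on a list of 49, of which 46 were measured. By the same test 1 was higher and 0 were lower, where 1.68% and 0.127% of all probe sets were. An unadjusted p under 0.05 was reached by 20 higher and 0 lower genes, against 12% and 9.27% of all probe sets. Their median log2 fold change was 0.22, 40 of 46 were positive, and the arrays did not overlap for 21, all higher in RUNX2/MYC, against 14.3% of all probe sets (28.4% to 44.1% at signals above 9). Eef1e1, a scaffold protein of the multi-tRNA synthetase complex, had 11.06, 10.99 and 11.03 on the RUNX2/MYC arrays and 10.28, 10.25 and 10.37 on the WT arrays and rose without overlap (log2 fold change 0.73, standard error 0.082, adjusted p = 0.0159). Medians were 0.17 for 26 partners of initiation, 0.35 for 11 genes listed under elongation and 0.26 for 9 listed under termination and recycling. These lists are mixed. Elongation includes Eef1e1 and the mitochondrial Tufm, Tsfm, Gfm1 and Gfm2, the last a recycling factor. Termination and recycling includes the mitochondrial Mtrf1, Mtif2 and Mtif3, of which Mtif2 and Mtif3 are initiation factors. Dhps and Dohh, the enzymes that make hypusine on eIF5A, had log2 fold changes of 0.48 (adjusted p = 0.0726) and 0.62 (adjusted p = 0.0800), both without overlap. Ncbp2, of the nuclear cap-binding complex, had 0.50 (adjusted p = 0.0677), and Abce1, which splits ribosomes for a new round of initiation, 0.50 (adjusted p = 0.0615). The regulators Ppp1r15a, which directs dephosphorylation of eIF2, and Pdcd4, an inhibitor of eIF4A, had -0.041 and 0.094, and Atf4, translated when eIF2 is phosphorylated, had 0.28 without overlap (adjusted p = 0.166).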

How the data were processed

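Whole-thymus RNA of 3 RUNX2/MYC and 3 WT mice was measured on 6 Affymetrix MoGene-1 arrays. The values used are the log2 signals that the authors deposited. The submitters' processing notes name RMA (background correction, normalization between arrays and probe summary) and Affymetrix Expression Console 1.4, and the methods describe Partek Genomics Suite and a GC adjustment, so which software made the values is not settled. Array signals tend to understate fold changes, and a common scale assumes that most RNAs do not shift. Array medians ran from 7.31 to 7.49. No pair of arrays was a duplicate (smallest median absolute difference 0.11). Precision is limited by having 3 arrays in each group, for which the smallest two-sided p of an exact permutation test over single values is 0.1. The contrasts between genes within arrays all gave this value, which cannot pass the threshold, and they are given as descriptions.

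In the platform annotation 21789 probe sets have 1 gene symbol, 1621 have several and 12146 have none. The test was limma 3.58.1 in R 4.3.3 (RUNX2/MYC minus WT, lmFit and eBayes on the log2 scale, Benjamini-Hochberg adjustment over all 35556 probe sets, threshold 0.05). The script was tested on simulated data. The methods name an ANOVA with q values, which was run as an alternative. Further alternatives were quantile, median, 75th percentile and cyclic loess scaling, a filter at a mean log2 signal of 6, array weights, Benjamini-Hochberg on the ANOVA, the replicate number as a block, leaving out each array, the mean of all probe sets of a gene, and 2 settings added after seeing the data. Members, complexes, the list of other translation genes, the marker lists and the motifs were chosen with earlier results of these data known. Every member was named, with the value of each array for called genes, for negative log2 fold changes at an unadjusted p under 0.05 (there were none) and for the largest difference of each complex; values by array of some further genes were added. Promoter sequences are from RefSeq (GRCm38.p6), whose table held 39 members and not the other 10. Nothing in the sources names the genome build behind the probe annotation, and no position of a probe set was used.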

Additional observations from a re-analysis of the deposited data

How the results depend on the processing

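The initiation factor median log2 fold change was 0.285, and it was 0.187 after quantile normalization, 0.369 after median centring, 0.189 after 75th percentile centring and 0.177 after cyclic loess. The eIF3 median log2 fold change was 0.360, and under the same settings 0.272, 0.444, 0.263 and 0.219. The median of all probe sets moved by 0.028, 0.084, -0.097 and 0.042 under the same settings. Median and 75th percentile centring shift every probe set of an array alike, so the initiation factor median moved by the same 0.084 and -0.097. After quantile normalization and cyclic loess it fell while the median of all probe sets rose. The counts of called genes were less stable. The 4 initiation factor genes higher (2 of eIF3, 1 of the other translation genes, 596 probe sets higher and 45 lower) became 2 (0, 2, 543 and 98) after quantile normalization, 6 (3, 3, 915 and 48) after median centring, 2 (0, 1, 209 and 45) after 75th percentile centring and 2 (0, 2, 457 and 124) after cyclic loess. They were 4 (2, 2, 781 and 77) without dim probe sets, 16 (5, 7, 1213 and 247) by the ANOVA with q values and 2 (0, 3, 162 and 33) with Benjamini-Hochberg adjustment, where Eif2b3 and Eif2d passed. Array weights, whose estimation did not converge, gave 35 higher and 2 lower (eIF3 9 higher, other translation genes 30 higher and 1 lower, 9165 probe sets higher and 12137 lower). Without the 6617 probe sets numbered below the first annotated one, a setting chosen after seeing the data that leaves fewer tests, there were 12 (4, 9, 1109 and 161). With the mean of all probe sets of a gene the count was 4 and the median 0.279. Beyond the common shift of the medians under centring and the fewer tests, the cause of these changes was not tested.

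Leaving out 1 array gave 0 to 4 initiation factor genes higher, 0 to 2 of eIF3, 0 to 3 of the other translation genes, 3 to 872 probe sets higher and 0 to 718 lower, with medians of 0.268 to 0.332 (0.332 without RUNX2/MYC replicate 1) and 0.322 to 0.378. These fits have fewer samples. The adjusted p over these fits ran from 0.0303 to 0.110 for Eif2b3, 0.0386 to 0.149 for Eif1a, 0.0433 to 0.186 for Eif3b and 0.0459 to 0.186 for Eif3g. Their log2 fold changes ranged from 0.83 to 0.86, 0.63 to 0.72, 0.50 to 0.57 and 0.56 to 0.66.

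With the replicate number as a block, 10 initiation factor genes were higher (3 of eIF3), with 8 other translation genes, 1654 probe sets higher and 763 lower. The numbers were not taken as pairs: the correlations of deviations between same-numbered arrays were 0.50, -0.15 and 0.61, and RUNX2/MYC replicate 2 correlated best with WT replicate 3 (0.21).

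Signs turned for 8 genes, none of them called by limma on the deposited values, though array weights called Eif5a2 lower (-0.24, adjusted p = 0.0471). After quantile normalization, 75th percentile centring and cyclic loess respectively, the log2 fold change was -0.062, -0.056 and -0.097 for Eif1b, -0.090, -0.080 and -0.11 for Eif2ak3, -0.0029, -0.037 and -0.066 for Eif4h, and -0.0065, -0.027 and -0.059 for Eif4ebp2. Median centring gave 0.0063 for Eif4g2 and 0.019 for Eif5a2, and array weights 0.17 for Eif2ak2. Leaving out 1 array gave -0.036 to 0.089 for Eif1b, -0.12 to 0.20 for Eif2ak3, -0.14 to 0.028 for Eif5a2, -0.20 to 0.071 for Eif2ak2 and -0.030 to 0.22 for Eif4a3l1.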

Other observations

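Some probe sets name an initiation factor gene without meeting the rule for members. The Y-linked Eif2s3y, the counterpart of Eif2s3x, had log2 signals of 9.98, 10.30 and 10.48 on RUNX2/MYC replicates 1 to 3 and 9.67, 9.70 and 10.27 on WT replicates 1 to 3, which overlap (log2 fold change 0.37, adjusted p = 0.309 from limma). A probe set shared by Eif5 and the small nucleolar RNA gene Snora28, which lies within Eif5, had 9.03, 9.13 and 9.72 against 7.86, 8.35 and 9.07, a log2 fold change of 0.87 with an adjusted p of 0.201, larger than the 0.50 of the Eif5 probe set and more variable between arrays. The sets shared by Eif4a3 and Eif4a3l1 had log2 fold changes of 0.23 and 0.25 without overlap, and the one shared by Ankhd1 and Eif4ebp3 had 0.09 with overlap. None of these was called.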
